A study of Saccharomyces cerevisiae with 4 samples.

Results

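The meiotic recombination checkpoint and DOT1 genes are 10 nuclear genes of 6664 listed for Saccharomyces cerevisiae: MEC1, TEL1, DDC2, RAD24, RAD17, MEC3, DDC1, RAD9, DOT1 and FPR3. They were picked out by gene name or systematic ID, by a rule that uses no measured value but was drawn up with earlier results of these data known, and all 10 were found; DDC2 (YDR499W) is listed under its other name LCD1. RNA came from SK1 cells, a background that sporulates well, taken 4 h after transfer to sporulation medium and kept at 30 °C. Group ndt80 lacks NDT80, and group ndt80pch2 lacks NDT80 and PCH2, by the sample titles, with 2 samples in each; the other label fields name the NDT80 deletion alone for all 4. Both groups therefore carry the NDT80 deletion, which holds cells in meiotic prophase, and no NDT80 wild-type group was analysed here. Nothing in the labels ties the samples of 1 strain to different cultures, so p-values measure only how far these samples spread, and that spread may be technical.

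During meiotic prophase, cells cut their own chromosomes and repair the breaks by recombination. While breaks stay unrepaired, the checkpoint holds cells before the meiotic divisions. Resected DNA coated with the protein RPA recruits the kinase Mec1 through its partner Ddc2. Separately, the Rad24 clamp loader places a ring of Rad17, Mec3 and Ddc1 at the break. Tel1, the other sensor kinase, responds to breaks bound by the Mre11 complex. In meiosis the signal runs through the chromosome axis protein Hop1 to the kinase Mek1, where dividing cells use the adaptor Rad9 and the kinase Rad53. Dot1 methylates histone H3 at lysine 79, is needed for the checkpoint arrest, and keeps Pch2 enriched at the nucleolus. Fpr3 is a prolyl isomerase that helps to maintain the arrest. The comparison asks whether transcripts of this pathway differ once Pch2, itself a checkpoint component, is absent.

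The 250 bases before each start codon were searched on both strands for 3 elements, to show which members carry sites known from early meiotic, cell-cycle or Ndt80-dependent promoters. The letters were GGCGGC (core of URS1, found before early meiotic genes), ACGCGT (the MluI cell cycle box, MCB, found before genes of DNA replication and repair) and CACAAA (core of the middle sporulation element, the site of Ndt80). No member held matches to more than 1 element, so no printed match overlaps another. URS1 core was present before 1 of 10 members and before 4.2% of 6663 nuclear genes. MCB was present before 2 of 10 and 2.76%, and CACAAA before 0 of 10 and 16.4%. The 3 matches are printed below from the RefSeq R64 genome with 30 bases on each side, on the strand of the gene, the match in capitals. The DDC1 match reads GGCGGC on the other strand and lies 99 bases before the start codon (XVI:179148-179213, + strand). The RAD17 match lies 96 bases before it (XV:1026717-1026782, + strand), and the DOT1 match 173 bases before it (IV:1342290-1342355, + strand).
DDC1: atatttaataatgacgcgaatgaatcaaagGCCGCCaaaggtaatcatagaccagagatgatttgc
RAD17: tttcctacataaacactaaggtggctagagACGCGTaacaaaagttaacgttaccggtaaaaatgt
DOT1: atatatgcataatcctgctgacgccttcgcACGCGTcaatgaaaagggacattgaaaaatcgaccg

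The files give 1 value per gene and strain, on a scale like TPM (reads per coding length, scaled so that libraries have equal totals). Each value is the mean of 2 libraries, and whole reads per library were recovered from it, as described under the processing; the libraries are called A and B for ndt80, C and D for ndt80pch2. The 4 libraries held 1656722 to 2307380 recovered reads over 6632 nuclear genes. All 10 members had exactly 1 whole-read solution in each value they rest on, with 29 to 751 reads per library, and all 10 passed the filter of a mean of at least 1 TPM. PCH2 had 710 and 776 reads in ndt80 and 0 in both ndt80pch2 libraries, which allows up to 1.29 TPM at a floor of 3 reads; NDT80 had 0 reads in all 4. Summed over 9 meiotic prophase markers, levels were 5058 to 5873 TPM in the 4 libraries. Haploid and mating markers summed to 49.6 and 49.9 TPM in the ndt80 libraries, against 33.8 and 35.9 in the ndt80pch2 libraries, with MFA1 and MFA2 at 0 in all 4. Vegetative cycle markers summed to 75.9 to 95.4 TPM and middle sporulation markers to 387 to 410 TPM. The part of cell composition in the results below was not tested, and in bulk RNA fewer cells of a type and less RNA per cell cannot be told apart.

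Read row by row, the deposited tables give most members larger strain differences than the recovered libraries do, by far for MEC1, RAD17 and MEC3. DDC2 had the smaller difference by row, with a log2 ratio (1 TPM added) of 0.13 by row and -0.27 realigned. TEL1 was small both ways, at 0.09 and -0.06. The sign of the ratio turned on realignment for all members but MEC3, RAD9 and DOT1. From row 94 of the ndt80 table, the first mitochondrial row, each deposited value averages the named gene in library A with a different gene in library B. The deposited MEC1 row gives 319.5 TPM in ndt80 and 46.7 in ndt80pch2, a 6.84-fold difference. That row averages 43.0 TPM of MEC1 in library A with 595.9 TPM of MEI5, a meiotic recombination gene, in library B. With MEC1 put back together, ndt80 had 46.1 TPM and ndt80pch2 46.7. The RAD17 row holds RAD52, the strand-annealing recombination gene, at 374 TPM, and read row by row is 3.65-fold higher in ndt80; realigned, RAD17 had 48.9 TPM in ndt80 and 57.5 in ndt80pch2. The MEC3 row holds the checkpoint kinase gene MEK1 at 627 TPM and is 2.48-fold higher in ndt80 by row; realigned, MEC3 had 160.0 and 159.1 TPM. Row by row, 5 of 10 members (MEC1, RAD17, MEC3, DOT1 and RAD9) were at least 2-fold lower in ndt80pch2, against 30.4% of all tested genes that were 2-fold apart in either direction. Realigned, 0 of 10 were, against 2.31%.

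**Figure D1:**
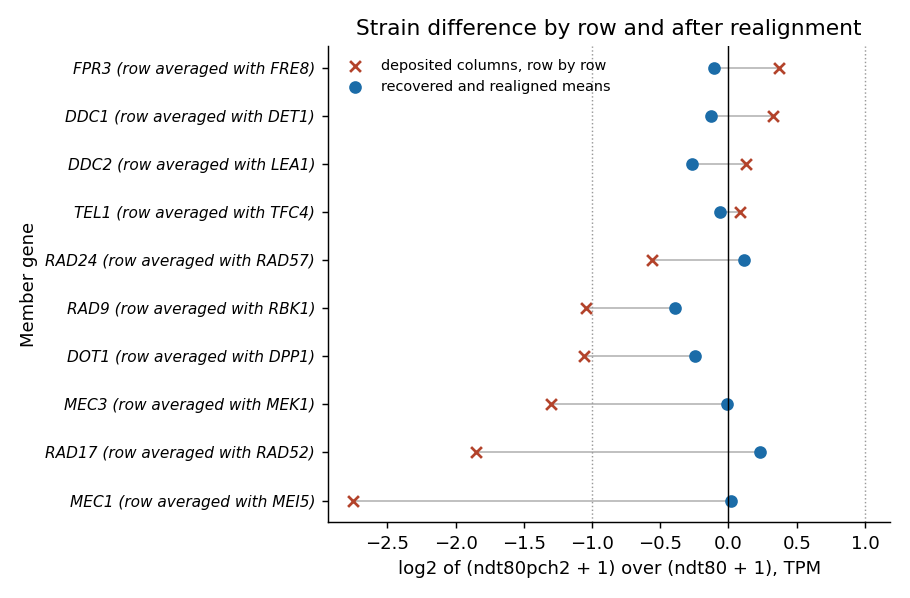
Log2 ratio of ndt80pch2 over ndt80, after adding 1 TPM to each, for each member as the deposited rows give it (crosses) and from the recovered and realigned means (circles). The gene named in brackets is the one averaged into the member's ndt80 row, and dotted lines mark a 2-fold difference; 5 crosses and 0 circles lie beyond them.

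MEC1 and TEL1 encode the sensor kinases, related to mammalian ATR and ATM. MEC1 (YBR136W, chromosome II, 505668 to 512774, + strand) had 43.0 and 49.1 TPM in ndt80 libraries A and B, and 44.3 and 49.1 in ndt80pch2 libraries C and D. The strains overlapped, and the log2 fold change relative to the median of all tested genes was 0.17 (95% interval -0.19 to 0.52; limma adjusted p = 0.952). TEL1 (YBL088C, chromosome II, 51019 to 59382, − strand), the longest member with 8364 coding bases, had 47.2 and 47.7 TPM in the ndt80 libraries, against 46.4 and 44.6 in the ndt80pch2 libraries. Both ndt80 libraries were above both ndt80pch2 libraries as recovered, but relative to all genes the order turned, with a log2 fold change of 0.09 (-0.23 to 0.40; limma adjusted p = 0.828). The levels of the kinase transcripts overlapped in each strain, with a MEC1 to TEL1 ratio of 0.971 ± 0.0833 in ndt80 and 1.03 ± 0.104 in ndt80pch2 (SD, n = 2).

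That turn of TEL1 comes from a shift in the median over all tested genes. Not every gene shared it: as recovered, 9.40% of tested genes had both ndt80pch2 libraries above both ndt80 libraries. The median log2 fold change over the 5769 tested genes was -0.15 on the log2(TPM + 1) scale, and differences between strains are therefore given relative to that median. The p-values belong to the change before this subtraction, so a p printed beside a relative change does not test that relative change. After median-of-ratios scaling, limma adjusted p-values of the members ran from 0.456 (RAD17) to 0.97 (DDC1).

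DDC2 (YDR499W, chromosome IV, 1447830 to 1450073, + strand), whose protein carries Mec1 to RPA-coated DNA, had 36.5 and 42.4 TPM in the ndt80 libraries, against 34.0 and 31.3 in the ndt80pch2 libraries. Both ndt80pch2 libraries were below both ndt80 libraries as recovered, and the groups overlapped relative to all genes (log2 fold change -0.12, -0.51 to 0.27; limma adjusted p = 0.422). MEC1 transcripts exceeded DDC2 transcripts 1.17 ± 0.0134-fold in ndt80 and 1.43 ± 0.189-fold in ndt80pch2.

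RAD24 (YER173W, chromosome V, 536300 to 538279, + strand) encodes the large subunit that turns the replication factor C (RFC) complex into the checkpoint clamp loader. It had 25.3 and 25.2 TPM in the ndt80 libraries, against 27.0 and 27.7 in the ndt80pch2 libraries. The ndt80pch2 libraries were above the ndt80 libraries, by 0.26 on the log2 scale once the median of all genes was subtracted (-0.15 to 0.67, limma adjusted p = 0.741). The values rest on 75 to 94 reads per library. An open reading frame on the opposite strand, YER172C-A, overlaps RAD24 and had 0 reads in all 4 libraries; the other 9 members overlap no listed gene.

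The clamp genes stood at unequal levels although their proteins form a ring of 1 each. MEC3 (YLR288C, chromosome XII, 713480 to 714904, − strand) had the highest mean of the members in both strains, although FPR3 was above it in library A. It had 160.8 and 159.3 TPM in the ndt80 libraries, against 162.8 and 155.4 in the ndt80pch2 libraries. The strains overlapped as recovered; relative to all genes the ndt80pch2 libraries were higher by 0.14 on the log2 scale (-0.08 to 0.36; limma adjusted p = 0.965). DDC1 (YPL194W, chromosome XVI, 179277 to 181115, + strand), the clamp subunit that activates Mec1, had 80.9 and 84.97 TPM in the ndt80 libraries, against 72.6 and 79.1 in the ndt80pch2 libraries. Its log2 fold change was 0.02 (-0.25 to 0.29; limma adjusted p = 0.556). Within single libraries, MEC3 was 1.87 to 2.24 times DDC1 and 2.72 to 3.59 times RAD17.

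RAD17 (YOR368W, chromosome XV, 1026843 to 1028048, + strand), the third clamp gene, had 44.8 and 52.9 TPM in the ndt80 libraries, against 59.8 and 55.2 in the ndt80pch2 libraries. Both ndt80pch2 libraries were above both ndt80 libraries, as recovered and relative to all genes. Its log2 fold change of 0.38 was the largest among the members, with an interval (0.03 to 0.73) above 0. RAD17 did not pass the test over all genes (limma adjusted p = 0.426), which is of the change before the median is subtracted (0.23). After median-of-ratios scaling, where the median of all genes is -0.0052, its limma adjusted p was 0.456. In that fit 594 of 5769 tested genes had an unadjusted limma p under 0.05. How many of all tested genes had an interval clear of 0 was not counted. The counts were small, at 91 to 120 reads, and the counting intervals of single libraries overlapped: 43.9 to 63.2 TPM in B and 44.4 to 67.7 in D. The DDC1 to RAD17 ratio was 1.71 ± 0.14 in ndt80 and 1.32 ± 0.155 in ndt80pch2 (SD, n = 2).

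RAD9 (YDR217C, chromosome IV, 899551 to 903480, − strand) encodes the adaptor that passes the signal to Rad53 in dividing cells. It had 35.8 and 34.2 TPM in ndt80, 32.5 in ndt80pch2 library C and 20.3 in library D. The lowest value of the 4 was thus held by 1 library, and its counting interval (16.6 to 24.5 TPM, exact Poisson, 109 reads) did not reach that of library C (27.9 to 37.6 TPM, 179 reads). The D minus C difference of RAD9 was -0.66 on the log2 scale, and 6.41% of all tested genes had a difference as low or lower. Tested genes reach down to a mean of 1 TPM, and genes of similar depth to RAD9 were not counted apart. Among the other 9 members the D minus C difference ranged from -0.17 to 0.14. The log2 fold change between strains was -0.28 relative to all genes (-0.88 to 0.31; limma adjusted p = 0.397, limma-voom adjusted p = 0.313). Without library D it was 0.03, and without library C -0.60 (limma adjusted p = 0.195). Counting intervals cover counting error only.

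DOT1 (YDR440W, chromosome IV, 1342493 to 1344241, + strand) was the lowest member in all 4 libraries. It had 15.6 and 13.7 TPM in the ndt80 libraries, against 12.2 and 12.1 in the ndt80pch2 libraries, from 47, 45, 30 and 29 reads. Both ndt80pch2 libraries were below both ndt80 libraries, at a relative log2 fold change of -0.10 (-0.68 to 0.49; limma adjusted p = 0.599). At this depth the interval spans 0.624-fold to 1.4-fold.

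FPR3 (YML074C, chromosome XIII, 120089 to 121324, − strand) had 177 and 138 TPM in the ndt80 libraries, against 154.8 and 137 in the ndt80pch2 libraries. The strains overlapped, and the ndt80 libraries differed from each other more than the strain means did (157.5 ± 27.5 TPM for ndt80, 146.0 ± 12.4 TPM for ndt80pch2; SD, n = 2). The log2 fold change was 0.05 (-0.30 to 0.39; limma adjusted p = 0.726). FPR4, its nucleolar paralogue, named after its values were seen, was 2.1 to 3.35 times less abundant than FPR3 in the 4 libraries.

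**Figure D2:**
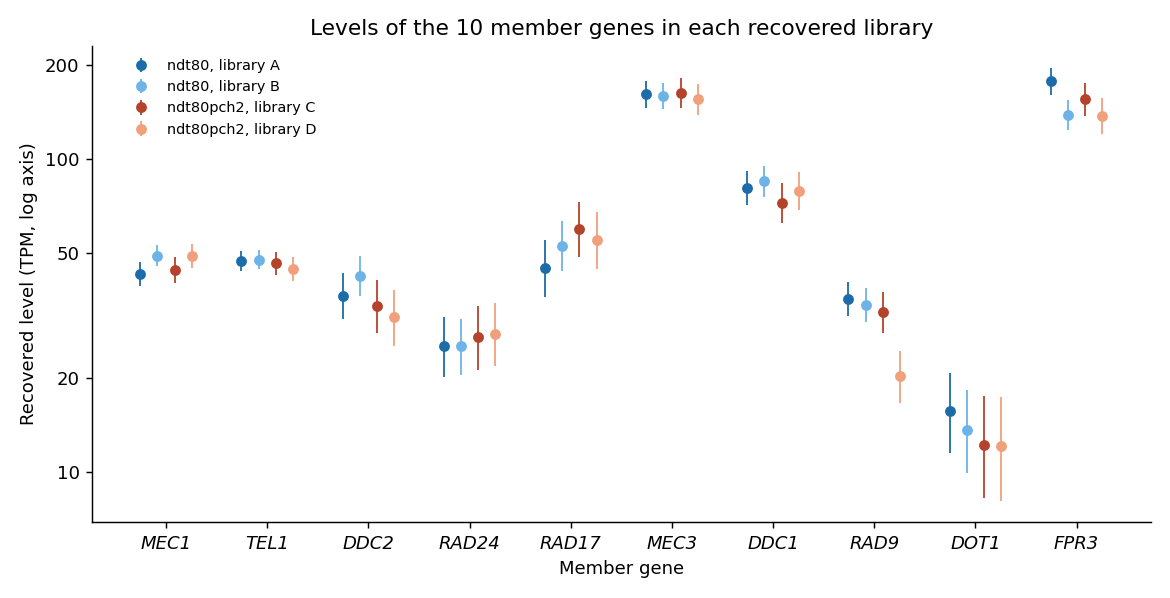
Recovered level of each member (TPM, log axis) in libraries A and B of ndt80 and C and D of ndt80pch2, with exact Poisson 95% counting intervals as bars. MEC3 and FPR3 lie at 137 to 177 TPM, DOT1 at 12.1 to 15.6, and RAD9 of library D at 20.3 lies apart from its other 3 libraries.

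Ordered by mean level in ndt80, the members ran MEC3, FPR3, DDC1, RAD17, TEL1, MEC1, DDC2, RAD9, RAD24 and DOT1. In ndt80 the libraries of MEC3 and FPR3 overlapped, as did those of RAD17 and TEL1 and those of TEL1 and MEC1, so these neighbours did not differ beyond their spread there. In ndt80pch2 MEC3 and FPR3 were apart only narrowly, with MEC3 at 155.4 TPM in library D and FPR3 at 154.8 in library C. The counting intervals of these values overlapped (138.4 to 174 and 136.8 to 174.4 TPM). The order of the members in ndt80pch2 differed by 2 swaps of neighbours. MEC1 stood before TEL1, with libraries that overlapped in both strains. RAD24 stood before RAD9, a pair that was apart in ndt80 and overlapped in ndt80pch2, where RAD9 was above RAD24 in library C and below it in library D. The highest and lowest member were 10.9-fold apart in ndt80 and 13.1-fold apart in ndt80pch2. By mean level over the 4 libraries, MEC3 stood at the 81.1 percentile of tested genes, FPR3 at 79.98, DDC1 at 62.5, RAD17 at 49.0 and DOT1 at 13.4.

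Across the list, 0 of 10 members passed limma-trend in either direction, and 0.0173% of tested genes did (1 gene of 5769, the deleted PCH2 itself). By limma-voom on the recovered reads 0 of 10 passed, against 0.451%. At an unadjusted p under 0.05, limma-trend had 0 of 10 and limma-voom 1 (RAD9), where 15.8% and 15.0% of all tested genes were; for limma-voom 3.31% were higher and 11.7% lower, and RAD9 was lower. The median log2 fold change of the members was 0.07 relative to all genes, whose interquartile range was -0.16 to 0.16; 6 of 10 members lay inside that range. Relative to all genes, 5 members had libraries of 1 strain entirely above those of the other, 4 higher in ndt80pch2 (TEL1, RAD24, RAD17 and MEC3) and 1 lower (DOT1). Over all tested genes 44.0% did not overlap, 22.4% higher and 21.6% lower, so the share among the members was near that of genes at large. As recovered, 2 members were higher in ndt80pch2 without overlap (RAD24 and RAD17; 9.40% of all tested genes) and 5 lower (TEL1, DDC2, DDC1, RAD9 and DOT1; 42.4%), which is 7 in either direction against 51.8%. The 95% intervals reached between 0.22 and 0.59 on the log2 scale to each side, or 1.16-fold to 1.51-fold. These widths are not a detection limit: of the 133 tested genes 2-fold apart between the recovered means, most were not called either. The intervals are shifted by the median of all genes and the tests are not. The RAD17 interval above 0 and its missing call therefore concern different quantities. The tests do not show that the strains were alike.

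**Figure D3:**
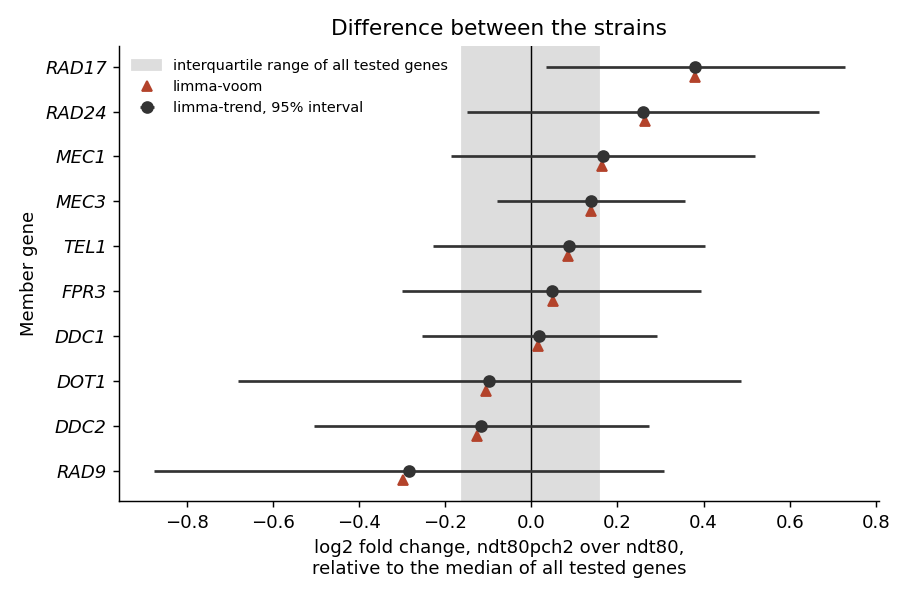
Log2 fold change of each member in ndt80pch2 over ndt80, relative to the median of all tested genes, by limma-trend with its 95% interval (circles and bars) and by limma-voom (triangles). The grey band is the interquartile range of all tested genes, -0.16 to 0.16. RAD17 (0.38) and RAD9 (-0.28) lie farthest from 0. Of the members, the RAD17 interval alone does not reach 0, and the share of all tested genes with such an interval was not counted.

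Around the members, 61 partner genes in 13 lists were examined; 0 passed limma-trend and 0 passed limma-voom. At an unadjusted p under 0.05 by limma-trend, 10 of 61 were lower in ndt80pch2 and 0 higher; of all tested genes, 13.1% were lower and 2.70% higher. The median over the 61 was -0.06 relative to all genes. The partner genes named below were mostly that of smallest unadjusted p or that of highest mean level in a list, where the description of the members turns on them. That p tests the change before the median of all genes (-0.15) is subtracted, so choosing by it favours genes lower in ndt80pch2. In every list the gene of smallest p was lower. The lower genes named below therefore do not stand for their lists.

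Downstream of the sensors, MEK1, the meiotic effector kinase, had 569 and 627 TPM in the ndt80 libraries, against 634 and 726 in the ndt80pch2 libraries. The ndt80pch2 libraries were higher, at a relative log2 fold change of 0.33 (limma adjusted p = 0.407). RAD53, the related effector kinase of dividing cells, had 21.0 and 25.4 TPM in the ndt80 libraries, against 17.1 and 13.9 in the ndt80pch2 libraries (log2 fold change -0.41; limma adjusted p = 0.313), so that the lower libraries were those of ndt80pch2. MEK1 transcripts were 24.7 to 52.1 times as abundant as RAD53 transcripts in single libraries. In the whole list of 8 effectors and adaptors, 7 were above the median of all genes and 1 below, with a median of 0.20.

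Among genes acting with the clamp loader, RFC2, a small subunit shared by all RFC complexes, had 93.6 and 82.6 TPM in the ndt80 libraries, against 53.1 and 54.4 in the ndt80pch2 libraries. Both ndt80pch2 libraries lay below both ndt80 libraries (log2 fold change -0.55; limma adjusted p = 0.248, limma-voom adjusted p = 0.0834). It had the smallest unadjusted p of the 61 partners, 0.00107 by limma. The 4 small subunits together had a median of -0.22. RFC1, whose place Rad24 takes in the checkpoint loader, was 1.59 to 1.92 times as abundant as RAD24 in single libraries.

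TEL2, needed to assemble Mec1 and Tel1, had 72.0 and 65.1 TPM in the ndt80 libraries, against 51.5 and 46.7 in the ndt80pch2 libraries (log2 fold change -0.33; limma adjusted p = 0.287). The other 2 maturation genes, TTI1 and TTI2, were not called either, and the list median was -0.15. SAE2, which starts end resection with the Mre11 complex and is a Mec1 and Tel1 target, had 56.6 and 51.7 TPM in the ndt80 libraries, against 41.9 and 38.7 in the ndt80pch2 libraries (log2 fold change -0.27; limma adjusted p = 0.287). Its ndt80pch2 libraries were below its ndt80 libraries. In its list, 3 of 5 genes were lower without overlap relative to all genes (21.6% of all tested genes were) and 4 of 5 as recovered (42.4% were).

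RAD6 encodes the enzyme that ubiquitinates histone H2B, a mark that Dot1 needs for full activity. It had 117.6 and 116.8 TPM in the ndt80 libraries, against 88.0 and 69.0 in the ndt80pch2 libraries (log2 fold change -0.43; limma adjusted p = 0.254). The ndt80pch2 libraries were lower, and in this list of 7 genes 3 were above and 4 below the median of all genes. HHF2, an H4 gene, had 259 and 286 TPM in the ndt80 libraries, against 196.7 and 128.9 in the ndt80pch2 libraries (log2 fold change -0.62; limma adjusted p = 0.279). How reads matching more than 1 copy of the H3 or H4 genes were treated is not given, so their split between copies may be uncertain. For the list of phosphatases and their adaptors, the median over 7 genes was 0.07 and 0 genes reached an unadjusted p under 0.05 by limma-trend.

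**Figure D4:**
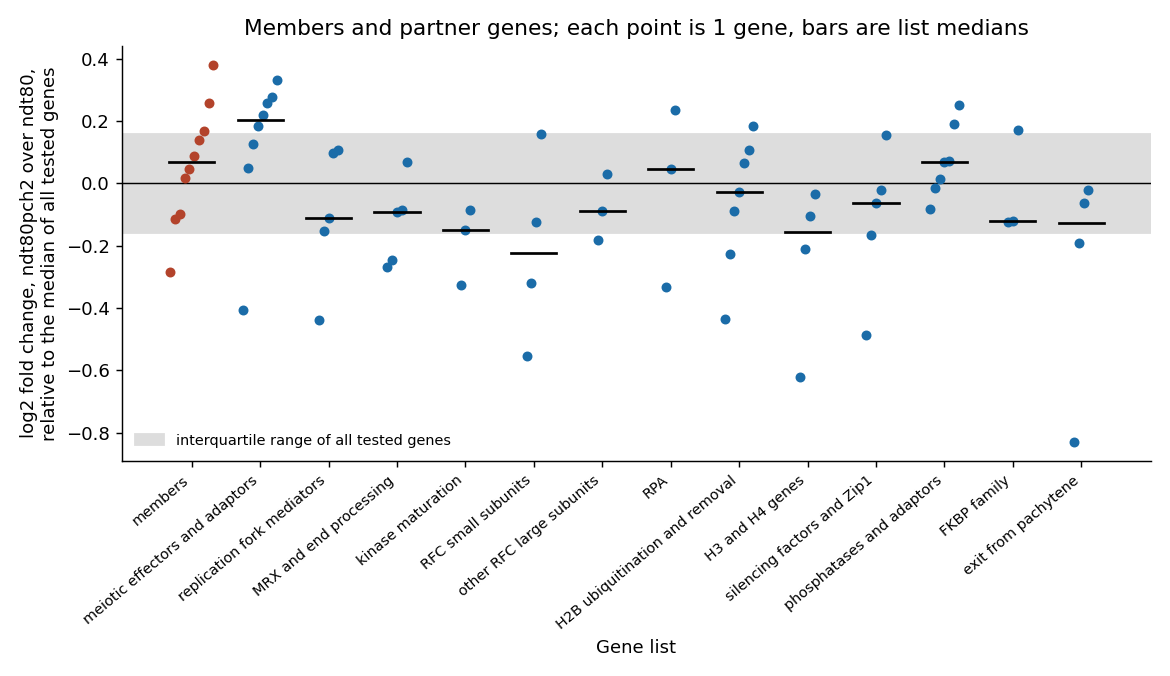
Log2 fold change relative to the median of all tested genes for the 10 members (red) and for the 61 partner genes by list (blue); each point is 1 gene, black bars are list medians and the grey band is the interquartile range of all tested genes. List medians run from -0.22 (RFC small subunits) to 0.20 (meiotic effectors and adaptors), and 0 genes shown passed the test over all genes.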

How the data were processed

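Messenger RNA was profiled in 2 strains with 2 samples each. The submitters' processing notes list DESeq2 2.11.40.6, HTSeq 0.9.1, HISAT2 2.1.0 and FastQC, besides the R64 (sacCer3) build, and assign them no role or order. For each strain the authors deposited a single value per gene, in a column with no header name; its TPM-like unit was inferred from the values. The sources used here do not give how strand and multi-mapping reads were treated.

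Coding lengths came from the R64 annotation (introns left out) for the 5998 of 6682 gene IDs with the same coordinates, and otherwise from the deposited tables. Each value multiplied by coding length was split into whole reads of 2 libraries, each read worth a constant amount in its library, within 0.55 of the last printed digit. This held for 99.9% of ndt80pch2 values above 0. From row 94 of the ndt80 table it held for 9.17% in printed order. It held for 99.8% when library B was taken from the gene at that row number of the ndt80pch2 table, which lacks the 18 mitochondrial rows. The last 18 ndt80 rows, beyond the end of that table, were all whole reads of library A alone. Values with no solution or several were left out (32 of 6664 nuclear genes, no member). The values do not show which library is replicate 1 or 2.

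Genes with a mean of at least 1 TPM (5769) entered limma-trend (limma 3.58.1, R 4.3.3) as log2(TPM + 1), with genotype as the only term. P-values were Benjamini-Hochberg adjusted over all of them and called below 0.05. The added 1 TPM makes fold changes of low genes too small. Recovering libraries replaces the single deposited values, so every SD and test rests on that reading. Both the solving and the test were also run on simulated columns with known reads. The simulation took the row shift and the estimated worth of a read as given, so it cannot check either of them. Its outcome is not given here. Alternatives were limma-voom on recovered reads, median-of-ratios factors, other filters and pseudocounts, and leaving out each library. Python 3.11.15, numpy 2.4.6, pandas 2.3.3, scipy 1.17.1 and matplotlib 3.10.9 were used. The members and partner lists were chosen with earlier results of these data known. Named genes were all members, PCH2 and NDT80. For the partner lists the plan was to name any called gene, the gene of smallest p and that of highest mean level. Not all of these were named, and some lists have no gene named. FPR4, TTI1 and TTI2 were named outside that plan.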

Additional observations from a re-analysis of the deposited data

How the results depend on the processing

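In every fit run, 0 of 10 members were called: with a pseudocount of 0.1, no filter, a mean of at least 5 or 10 TPM, median-of-ratios factors, limma-voom on recovered reads, and without each library in turn. The smallest adjusted p of any member was 0.195, for RAD9 without library C. Directions also depend on subtracting the median of all genes, which was done in every fit. Before it, TEL1 (-0.06), MEC3 (-0.009), DDC1 (-0.13) and FPR3 (-0.10) were lower in ndt80pch2, and after it they were higher. The other members kept their direction. Among the fits, all with the median subtracted, a member changed direction only when a library was left out. Values then ranged from -0.60 to 0.026 for RAD9, from -0.13 to 0.22 for FPR3 and from -0.060 to 0.087 for DDC1. Of the reversed values, RAD9 was 0.026 without D, FPR3 -0.13 without B and -0.032 without C, and DDC1 -0.019 without A and -0.060 without D. Without changing direction, values ranged from -0.22 to -0.0079 for DDC2, from -0.18 to -0.010 for DOT1 and from 0.070 to 0.26 for MEC1. In these fits the strain left with 1 library is assumed to vary like the other. Over all tested genes, 1 was called by limma-trend, 2 and 5 at the higher filters, 0 without A or without B, and 26 by limma-voom. The members' median was -0.73 relative to all genes when the deposited rows were compared as printed, since those rows mix genes. No paired analysis was possible because the recovered libraries carry no replicate number.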
